A study of Mus musculus with 9 samples.

Results

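The fibroblast growth factor (FGF) genes examined here were the ligands Fgf1, Fgf2, Fgf7 and Fgf21, the receptors Fgfr1, Fgfr2 and Fgfr3, and the feedback inhibitors Spry1, Spry2 and Spry4. They were chosen by gene symbol, and all 10 were found among the 31167 genes of the expression table. RNA sequencing was performed on primary renal tubular epithelial cells from C57BL/6 mouse kidney in 3 groups of 3 libraries. Sham cells served as the control, H/R cells were kept at 1.0% oxygen in medium without glucose for 6 h and then reoxygenated in complete medium for 18 h, and EGR1OV cells were transfected with an Egr1 overexpression plasmid. In the study's methods the plasmid used in culture carries a cytomegalovirus promoter, which is active in most cell types. No group with an empty plasmid was analysed here, so the Egr1 insert and the transfection itself cannot be told apart. Nor was a group with the changes of medium alone, so oxygen and medium cannot be told apart in H/R. Nothing in the labels says whether libraries of a group came from separate mice or cultures, so p-values measure the spread between these libraries, which may be technical. The age of the mice is not given in the labels.

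FGF ligands bind receptor tyrosine kinases on the cell surface together with heparan sulfate, and endocrine FGFs such as Fgf21 use a Klotho coreceptor in its place. The activated receptor signals through the adaptor Frs2 to Ras and the MAP kinases, which switch on Sprouty genes and MAP kinase phosphatases that dampen the same signal. In the kidney this pathway is known for branching of the ureteric bud and for repair of the tubule. Fgf7 (keratinocyte growth factor) is classically made by stromal cells and acts on epithelial cells through an isoform of Fgfr2.

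Values are FPKM, which scale the fragments of a gene by its exon length and by the depth of the library and so can be compared between genes of different length. Libraries held between 16183617 and 18384022 reads, as recovered from the table. A difference was called when its limma adjusted p was under 0.05 (Benjamini-Hochberg over the 13985 genes that averaged 0.5 FPKM or more) and its size on the log2(FPKM + 1) scale was at least 1.3-fold for EGR1OV against Sham, 1.2-fold for H/R against Sham or 1.3-fold for EGR1OV against H/R. On that scale the change of a low gene is understated. Intervals are 95% intervals of the same fit, not adjusted for the number of genes. All adjusted p given below come from limma. As a check of the labels, the Sham libraries averaged 6.40 ± 0.443 FPKM of Egr1, against 7.88 ± 0.599 for the H/R and 42.6 ± 2.84 for the EGR1OV libraries (SD, 3 libraries each).

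The tubular label was checked against markers. Epithelial genes were high in Sham, with means of 1014 FPKM for Krt8, 86.2 for Cdh1 and 13.1 for Pax8. The proximal tubule transporter Slc34a1 averaged 0.00434 FPKM in Sham, and the loop of Henle gene Umod was listed at 0 in all 9 libraries. The tubule genes Lrp2 and Aqp1 were detected in every Sham library, at 3.51 to 3.67 and 1.23 to 1.43 FPKM. Markers of other cell types were also present. Their summed level in Sham was 37.4 to 39.2 FPKM over 9 fibroblast genes, 10.8 to 11.2 over 8 endothelial genes and 148 to 152 over 9 macrophage genes. The macrophage sum was 124 to 133 FPKM in H/R and 23.5 to 28.7 in EGR1OV, where 8 of the 8 macrophage genes tested were called lower. The sum of 14 tubule genes was 1978 to 2017 FPKM in Sham, 1833 to 1917 in H/R and 1274 to 1381 in EGR1OV. Most of this sum was Krt8 and Krt18, with means of 1014 and 685 FPKM in Sham and 618 and 412 in EGR1OV. Of 10 tested in EGR1OV against Sham, 5 were called lower: Krt8, Krt18, Krt19, Lrp2 (log2 difference -1.05) and Aqp1 (-0.75). Epcam was the 1 called higher (0.39), and Pax8 and Cdh1 were not called. Over all genes, 6.51% were called lower and 9.87% higher. Epcam was below the threshold after median-ratio scaling (0.36) and quantile normalization (0.34), and Cdh16 was called lower after the latter (-0.38). In bulk RNA, fewer cells of a type, less RNA per cell and a change of the single genes cannot be told apart.

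Regulatory sequence is shown for Fgf2 and Fgf7, the ligands among the 10 genes that were called in a comparison. Start sites and sequences are from RefSeq on GRCm38.p6, and 7 of the 10 genes are covered by the windows used here, each of 250 bases before and 50 after a start site. GCGNGGGCG, the recognition motif of Egr1 and related factors, was searched on both strands. It was present in windows of 2 of these 7 genes, Fgf2 and Fgfr3, and in 5.55% of 32851 windows of all genes. The Fgf2 match begins 47 bases before the start site and lies at chr3:37348596-37348624 on the plus strand with its flanks. In GENCODE M21 these bases fall in the first exon, in the 5′ untranslated region, of a Fgf2 transcript that starts further upstream. The motif is in capitals.
Fgf2: ggcgcgcgggGCGGGGGCGcacggggccg
The Fgf7 window has no match to that motif. The 250 bases before its start site lie at chr2:126034408-126034657 on the plus strand, outside the exons of the gene, and hold 1 match to GCGTG, a form of the core of the hypoxia response element (in capitals). ACGTG, the other form of that core, is absent from the stretch.
Fgf7: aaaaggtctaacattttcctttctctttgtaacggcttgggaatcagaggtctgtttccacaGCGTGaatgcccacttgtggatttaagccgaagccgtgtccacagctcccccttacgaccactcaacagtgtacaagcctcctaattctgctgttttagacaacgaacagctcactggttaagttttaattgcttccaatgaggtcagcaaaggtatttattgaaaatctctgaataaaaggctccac
Either form, on either strand, was present in a window of all 7 genes and in 43.8% of all windows, and GCGTG can also be part of the Egr1 motif. Fgfr3 had more than a single window. For Fgfr2 the matches lie after the start site, and the first 30 bases from that site are in no GENCODE transcript of the gene. A match is only a match of letters and shows no binding.

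In Sham cells the transcripts spanned almost 3 orders of magnitude. Spry1 was the most abundant at 41.3 FPKM, followed by Fgfr1 at 11.1, Spry2 at 5.57, Fgf7 at 4.51, Fgfr2 at 4.37, Fgf1 at 2.97, Spry4 at 2.72, Fgf2 at 1.89, Fgf21 at 0.477 and Fgfr3 at 0.0584 (means of 3 libraries). The ranges of Fgf7 and Fgfr2 overlapped, and every other pair of neighbours in this order was apart, if only just for Fgf1 (lowest library 2.85) and Spry4 (highest 2.84). After H/R the order was the same, but Fgf2, Spry4, Fgf1 and Fgfr2 formed a run in which each range overlapped the next. In EGR1OV, Fgf7 moved above Spry2 to the third place and Fgf1 stood above Fgfr2, with ranges that overlapped from Fgf1 through Fgfr2 to Spry4.

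**Figure D1:**
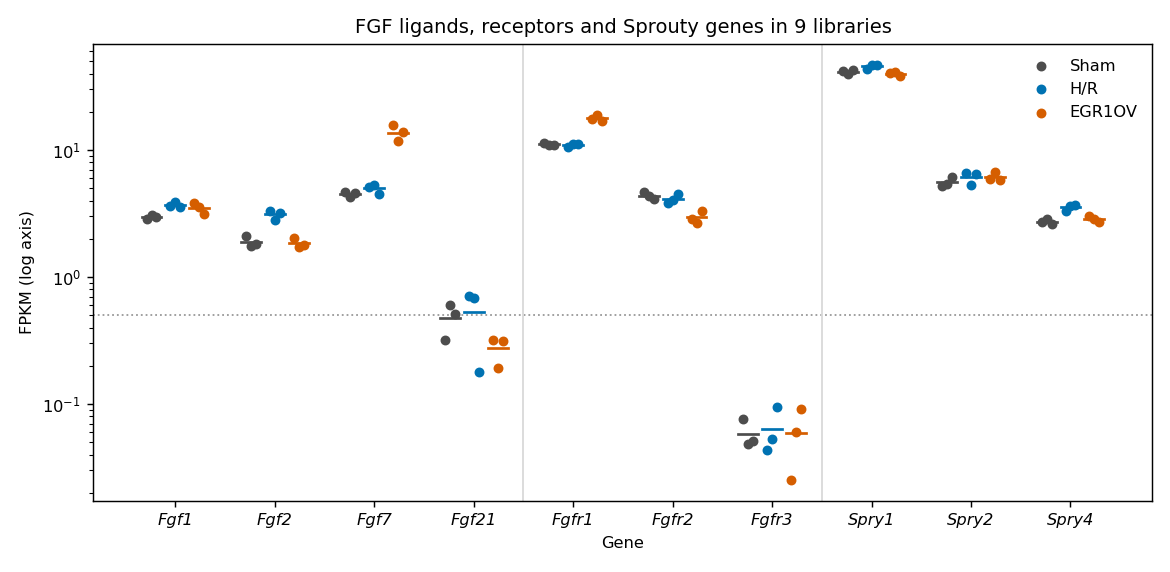
FPKM on a log axis for the 10 genes, with a point for each library and a bar at the mean of each group of 3, and the filter of 0.5 FPKM as a dotted line. Fgf7 and Fgfr1 stand higher and Fgfr2 lower in EGR1OV, Fgf2 and Spry4 stand higher after H/R, and Fgf21 and Fgfr3 lie near or under the filter.

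Of the 10 genes, 8 passed the filter, and Fgf21 and Fgfr3 did not. In EGR1OV against Sham, 2 of the 8 were called higher and 1 lower, where 16.4% of all genes were called, 9.87% higher and 6.51% lower. In H/R against Sham, 2 were called higher and 0 lower, where 4.25% of all genes were called, 1.60% higher and 2.65% lower. These comparisons share the Sham libraries. In EGR1OV against H/R, which asks whether the treated groups differ, 2 were called higher and 1 lower, where 18.9% of all genes were called, 11.9% higher and 6.94% lower. The median log2 difference of the 8 was 0.09, 0.13 and -0.13 in these comparisons, and that of all genes tested was 0.017, -0.030 and 0.055.

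Overlap of the libraries was also counted. In EGR1OV against Sham the groups did not overlap for 3 of the 8 with EGR1OV higher and 1 with it lower, beside 55.7% of all genes (31.0% higher and 24.6% lower). In H/R against Sham they did not overlap for 4 with H/R higher, beside 33.6% of all genes (11.8% higher and 21.8% lower). In EGR1OV against H/R they did not overlap for 2 with EGR1OV higher and 4 with it lower, beside 58.6% of all genes (36.6% higher and 22.0% lower).

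Among the ligands, Fgf7 changed most. The gene (ENSMUSG00000027208, protein coding, chromosome 2 from 126034658 to 126091185 on the plus strand) was at 4.66, 4.27 and 4.59 FPKM in Sham, at 5.16, 5.29 and 4.50 in H/R and at 15.6, 11.8 and 13.8 in EGR1OV. Every EGR1OV library lay above every other library, and these values rest on 242 to 842 reads. The mean rose from 4.51 ± 0.206 to 13.7 ± 1.92 FPKM (SD, n = 3), a ratio of 3.04, and the log2 difference was 1.41 (SE 0.091, adjusted p 1.75e-06). Against H/R the difference was 1.29 (SE 0.091, adjusted p 2.96e-06). H/R and Sham overlapped, with a difference of 0.12 (interval -0.09 to 0.32, adjusted p 0.446).

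Since Fgf7 is classically a stromal transcript, fibroblast markers were read beside it. Their summed level was 41.7 to 46.3 FPKM in EGR1OV and 45.3 to 45.7 in H/R, both above the Sham range of 37.4 to 39.2. Of the 6 fibroblast genes tested in EGR1OV against Sham, Col1a2 was called higher (log2 difference 0.45) and Thy1 lower (-0.50), although after quantile normalization Col1a2 was at 0.35, below the threshold. The shares of all genes in that comparison were 9.87% higher and 6.51% lower. The 9 markers differed widely in level. In Sham, Col1a1 averaged 21.1 FPKM, Col1a2 7.22 and Postn 3.83, with Pdgfrb between Col1a2 and Postn, while Col3a1 averaged 0.941 and Thy1 0.881. Others were near 0, with Pdgfra at means of 0.191 FPKM in Sham and 0.131 in EGR1OV, Dcn at 0.0541 and 0.0686, and Lum listed at 0 in all libraries but 1. The part of these cells' RNA in the Fgf7 values was not tested.

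**Figure D2:**
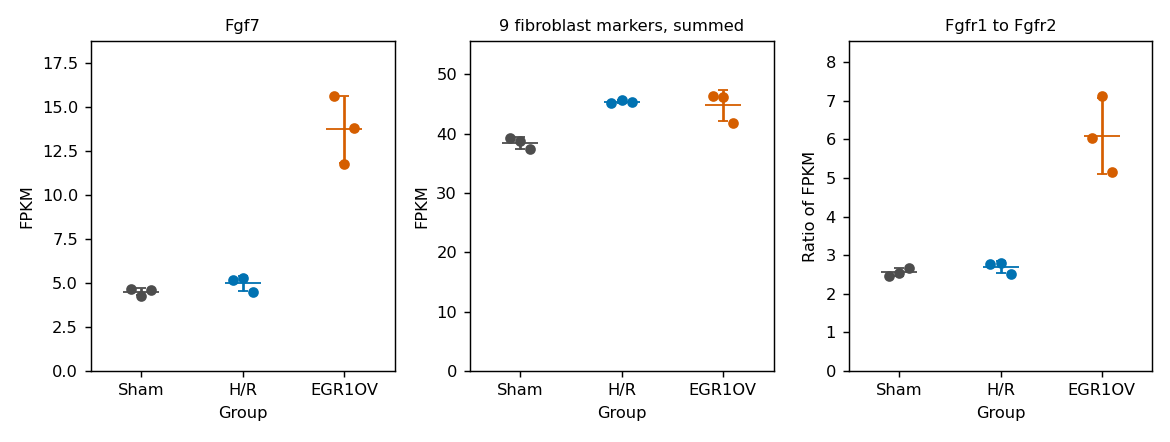
Fgf7 in FPKM, the summed FPKM of 9 fibroblast markers, and the ratio of Fgfr1 to Fgfr2 in each library (points), with the mean and SD of each group of 3. Fgf7 and the receptor ratio are set apart in EGR1OV, while the marker sum is higher than in Sham in both treated groups.

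Fgf2 (ENSMUSG00000037225, chromosome 3 from 37348346 to 37410108 on the plus strand), the basic fibroblast growth factor, showed another pattern. It was at 2.12, 1.75 and 1.80 FPKM in Sham, 3.33, 2.79 and 3.22 in H/R and 2.02, 1.72 and 1.79 in EGR1OV, values that rest on 191 to 387 reads. The H/R libraries lay above all others, and Sham and EGR1OV overlapped. The mean rose from 1.89 ± 0.197 to 3.11 ± 0.283 FPKM after H/R (SD, n = 3), a ratio of 1.65, with a log2 difference of 0.51 (SE 0.076, adjusted p 0.0045). In EGR1OV the difference from Sham was -0.02 (interval -0.19 to 0.15, adjusted p 0.827), and EGR1OV was lower than H/R by -0.53 on the log2 scale (SE 0.076, adjusted p 3.16e-04).

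The Fgf2 gene shares 640 exonic bases, 9.44% of its exon length, with Nudt6, a gene on the opposite strand. Whether the libraries keep strand is not stated, so reads in that stretch cannot be assigned with certainty. Nudt6 was at 1.31, 1.09 and 1.48 FPKM in Sham and at 1.44, 1.01 and 1.55 in H/R. Its part in the Fgf2 value was not tested. Of 6 fibroblast genes tested after H/R, 3 were called higher, where 1.60% of all genes were. These were Col1a2, Col1a1 and Postn (log2 differences of 0.32, 0.27 and 0.26). Pdgfrb (-0.23), Thy1 (-0.16) and Col3a1 (0.17) were not called. The part of fibroblast RNA in the Fgf2 value was not tested.

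Fgf1 (ENSMUSG00000036585, chromosome 18 from 38838673 to 38929404 on the minus strand), the acidic fibroblast growth factor, which can bind all FGF receptors, stayed below the fold thresholds on the log2(FPKM + 1) scale. It was at 2.85, 3.07 and 2.97 FPKM in Sham, 3.66, 3.91 and 3.58 in H/R and 3.86, 3.54 and 3.13 in EGR1OV. The libraries of either treated group lay above those of Sham. The ratio of means to Sham was 1.25 after H/R and 1.18 in EGR1OV. The log2 difference was 0.25 after H/R (interval 0.10 to 0.39, adjusted p 0.0384) and 0.18 in EGR1OV (interval 0.04 to 0.33, adjusted p 0.0427). The treated groups overlapped, with a difference of -0.07 (adjusted p 0.425). After median-ratio scaling the H/R difference was 0.28 (adjusted p 0.0238), which is past the 1.2-fold threshold, while the adjusted p was between 0.0717 and 0.113 when any single Sham or H/R library was left out. The adjusted p for EGR1OV against Sham was under 0.05 in 4 of 17 alternatives and as high as 0.177.

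Fgf21 (ENSMUSG00000030827, chromosome 7 from 45613886 to 45615490 on the minus strand), a hormone-like FGF induced by metabolic stress in other tissues, was barely detected. It was at 0.320, 0.603 and 0.510 FPKM in Sham, 0.715, 0.686 and 0.178 in H/R and 0.317, 0.193 and 0.312 in EGR1OV, which correspond to 3 to 12 reads per library. H/R overlapped both other groups, and the highest EGR1OV library lay just below the lowest Sham library. In a fit of all 29404 genes above 0, its adjusted p was 0.437 for EGR1OV and 1 for H/R against Sham, so a difference was not detectable at this depth. The coreceptors were low as well, with Klb at a mean of 0.0222 FPKM and Kl at 0.0848 FPKM in Sham.

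Of 18 other FGF genes, 14 were listed and 4 passed the filter. In EGR1OV, Fgf13, an intracellular FGF that binds sodium channels, fell by 0.95 on the log2 scale to 0.655 ± 0.116 FPKM (SD, n = 3, adjusted p 1.39e-05). Fgf18, a secreted ligand, fell by 0.55 (from 3.90 ± 0.539 to 2.34 ± 0.330 FPKM, SD, n = 3, adjusted p 0.00355). After H/R only Fgf13 among these 4 was called, with a log2 difference of -0.38 (adjusted p 0.0206). Among the FGF genes listed here, Fgf7 had the highest mean FPKM in each group, although its range overlapped that of Fgf18 in Sham and in H/R.

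The receptors differed in direction. Fgfr1 (ENSMUSG00000031565, chromosome 8 from 25513654 to 25575718 on the plus strand), which is typical of mesenchymal cells but also present in epithelia, was at 11.4, 11.0 and 11.0 FPKM in Sham, 10.6, 11.2 and 11.2 in H/R and 17.4, 19.0 and 17.0 in EGR1OV. The EGR1OV libraries lay above all others. Its mean rose from 11.1 ± 0.225 to 17.8 ± 1.03 FPKM (SD, n = 3), a ratio of 1.60, with a log2 difference of 0.63 against Sham (SE 0.044, adjusted p 2.90e-06) and 0.64 against H/R (SE 0.044, adjusted p 2.36e-06). H/R differed from Sham by -0.01 (interval -0.11 to 0.09, adjusted p 0.89), a sign that turned under median-ratio scaling (0.03) and quantile normalization (0.0032).

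Fgfr2 (ENSMUSG00000030849, chromosome 7 from 130162451 to 133123350 on the minus strand), whose epithelial isoform is the receptor for Fgf7, moved the other way. It was at 4.64, 4.34 and 4.12 FPKM in Sham, 3.86, 4.03 and 4.48 in H/R and 2.89, 2.67 and 3.31 in EGR1OV. The EGR1OV libraries lay below all others. The mean fell from 4.37 ± 0.262 to 2.95 ± 0.326 FPKM (SD, n = 3), with a log2 difference of -0.44 (SE 0.073, adjusted p 8.97e-04). Against H/R the difference was -0.38 (SE 0.073, adjusted p 0.00207), just short of 1.3-fold on the log2(FPKM + 1) scale, with a ratio of means of 0.716. The difference was past that threshold after median-ratio scaling (-0.43), after quantile normalization (-0.48), and without H/R replicate 1 (-0.41), H/R replicate 2 (-0.39) or EGR1OV replicate 3 (-0.44). Between H/R and Sham it was -0.07 (interval -0.23 to 0.10, adjusted p 0.593). Gene-level FPKM do not separate the epithelial from the mesenchymal isoform. The long span of the gene comes from a single annotated transcript, and 3.04% of its exon length is shared with Ctbp2.

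The ratio of these receptors was taken within each library, where a scaling factor cancels. It was chosen after the values were seen and describes them. Fgfr1 to Fgfr2 was 2.46, 2.54 and 2.68 in Sham, 2.76, 2.79 and 2.51 in H/R and 6.03, 7.12 and 5.15 in EGR1OV. The EGR1OV ratios lay above all others, with a mean of 6.10 ± 0.987 against 2.56 ± 0.110 in Sham (SD, n = 3, exact two-sided permutation p 0.1, the smallest that 3 against 3 allows). Epithelial keratins were called lower in the same libraries, Krt8 from a mean of 1014 to 618 FPKM and Krt19 from 83.3 to 43.7 FPKM, while Cdh1 was at 102 FPKM beside 86.2 in Sham. Their part in the receptor values was not tested. Endothelial cells can also carry Fgfr1. The sum of their markers was 7.89 to 8.40 FPKM in EGR1OV and 10.8 to 11.2 in Sham. The part of these cells in the Fgfr1 values was not tested.

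Fgfr3 (ENSMUSG00000054252, chromosome 5 from 33721674 to 33737068 on the plus strand) was nearly absent, at 0.0765, 0.0481 and 0.0508 FPKM in Sham, 0.0432, 0.0532 and 0.0945 in H/R and 0.0252, 0.0598 and 0.0913 in EGR1OV. These are 3 to 12 reads per library, and the groups overlapped in every comparison. Fgfr4 averaged 0.287 FPKM in Sham, also below the filter. Fgfrl1, a receptor-like protein without a kinase domain, averaged 18.4 ± 0.373 FPKM in Sham, 20.1 ± 0.241 after H/R and 18.2 ± 0.491 with EGR1OV (SD, n = 3) and was not called in any comparison. Among listed binding partners, Flrt3, a membrane protein that promotes FGF receptor signalling, fell in EGR1OV from 6.12 ± 0.364 to 1.83 ± 0.129 FPKM (SD, n = 3, log2 difference -1.33, adjusted p 1.18e-07). Its relative Flrt2 fell in EGR1OV (-0.59, adjusted p 5.60e-05) and rose after H/R (0.49, adjusted p 0.00235), and the difference between the treated groups was -1.08 (adjusted p 7.64e-07).

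Heparan sulfate completes the receptor complex, and all 17 listed carriers and enzymes were tested. In EGR1OV 1 was called higher and 5 lower against Sham, where 9.87% of all genes were called higher and 6.51% lower. Sdc3 (syndecan 3), a carrier, rose from 53.3 ± 0.948 to 108 ± 3.69 FPKM (SD, n = 3, log2 difference 1.00, adjusted p 4.79e-09). Hs6st2, which adds sulfate to the chain, fell (-0.88, adjusted p 1.63e-07), as did the carrier Gpc4 (-0.63, adjusted p 5.28e-07). After H/R only Ext1 of the 17, an enzyme that extends the chain, was called (0.30, adjusted p 3.62e-04), beside 4.25% of all genes. With either median-ratio scaling or quantile normalization Sulf1, which removes sulfate from the chain, was called as well (0.28 and 0.29).

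The Sprouty genes, which block Ras activation downstream of the receptor, were not called in EGR1OV against Sham, and 1 of the 3 was called after H/R. For comparison, the share of all genes passing was 16.4% for EGR1OV against Sham. For H/R against Sham it was 4.25%, with 1.60% higher. Spry4 (ENSMUSG00000024427, chromosome 18 from 38586268 to 38601268 on the minus strand) was at 2.70, 2.84 and 2.61 FPKM in Sham, 3.30, 3.64 and 3.66 in H/R and 3.02, 2.84 and 2.73 in EGR1OV. The H/R libraries lay above all others, while Sham and EGR1OV overlapped. The mean rose from 2.72 ± 0.112 to 3.53 ± 0.203 FPKM after H/R (SD, n = 3), with a log2 difference of 0.29 (SE 0.054, adjusted p 0.0118). In EGR1OV the difference from Sham was 0.06 (interval -0.07 to 0.18, adjusted p 0.441). The direct difference of EGR1OV from H/R was -0.23 (interval -0.35 to -0.11, adjusted p 0.00592), below 1.3-fold.

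Spry1 (ENSMUSG00000037211, chromosome 3 from 37639947 to 37644598 on the plus strand) lies 229838 bases from Fgf2. It was at 42.0, 39.4 and 42.3 FPKM in Sham, 43.7, 46.9 and 46.5 in H/R and 40.7, 41.0 and 38.1 in EGR1OV. The H/R libraries again lay above all others, but the log2 difference from Sham was 0.14 (interval 0.05 to 0.24, adjusted p 0.0574) and did not pass. Against H/R, EGR1OV differed by -0.19 (interval -0.29 to -0.10, adjusted p 0.00422), also below the fold threshold, and against Sham by -0.05 (interval -0.14 to 0.05, adjusted p 0.399). A gene model on the opposite strand, Gm42922, shares 24.4% of the exon length of Spry1 and was at most 0.353 FPKM in any library. Its part in the Spry1 values was not tested.

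Spry2 (ENSMUSG00000022114, chromosome 14 from 105891947 to 105896819 on the minus strand) was at 5.19, 5.39 and 6.12 FPKM in Sham, 6.60, 5.34 and 6.46 in H/R and 5.94, 6.71 and 5.81 in EGR1OV. All groups overlapped. The log2 difference from Sham was 0.12 in either treated group (interval -0.07 to 0.31 in both, adjusted p 0.405 after H/R and 0.261 in EGR1OV).

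**Figure D3:**
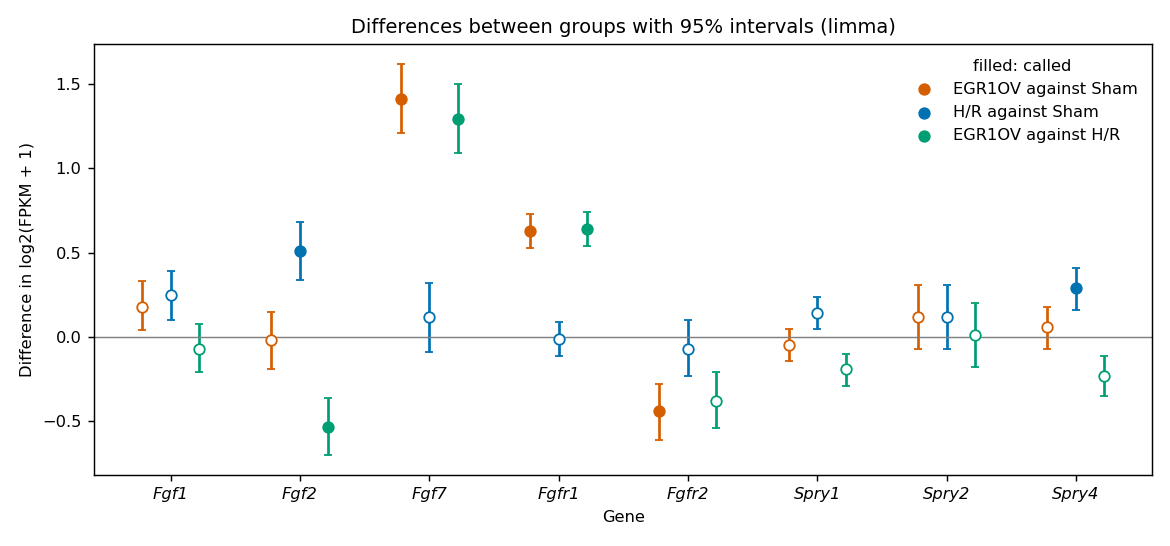
Differences in log2(FPKM + 1) between groups for the 8 tested genes, with 95% intervals from limma, filled where called. Fgf7 at 1.41 and Fgfr1 at 0.63 lead in EGR1OV against Sham, Fgf2 at 0.51 and Spry4 at 0.29 in H/R against Sham, and the H/R and EGR1OV points of Spry2 against Sham are level.

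Between receptor and nucleus, all 23 adaptors and Ras-MAP kinase genes listed were tested, and none was called after H/R, where 4.25% of all genes were. The limma adjusted p was under 0.05 for 2 of the 23, beside 11.7% of all genes. These were Rasa1 (0.19, adjusted p 0.0497) and Rps6ka1 (-0.13, adjusted p 0.0451), both below the fold threshold. In EGR1OV 2 were called, both higher, beside 16.4% of all genes. Map2k1, a kinase of the cascade, rose from 39.4 ± 0.369 to 61.8 ± 1.42 FPKM (SD, n = 3, log2 difference 0.64, adjusted p 4.98e-07), and the scaffold Ksr1 also rose (log2 difference 0.40, adjusted p 0.00155). Frs2, the docking protein of FGF receptors, averaged 7.40 FPKM for Sham and for H/R and 7.95 FPKM for EGR1OV, and was not called.

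Other feedback inhibitors were read beside the Sprouty genes, and 10 of 12 were tested. After H/R 2 were called higher, Dusp5 (from 21.3 ± 1.16 to 28.6 ± 1.89 FPKM, SD, n = 3, log2 difference 0.41, adjusted p 0.00261) and Dusp6 (from 22.8 ± 0.947 to 28.7 ± 0.365 FPKM, SD, n = 3, log2 difference 0.32, adjusted p 8.44e-04). Both are phosphatases that inactivate MAP kinases, and Dusp6 is a well-known reporter of FGF signalling. In EGR1OV 1 was called, Dusp4 (0.46, adjusted p 1.49e-05). The remaining tested inhibitors, Spred1, Spred2, Spred3, Dusp7, Il17rd, Errfi1 and Nf1, were called in neither comparison. Below the fold threshold, limma adjusted p was under 0.05 in EGR1OV for Spred2 (0.29), Dusp5 (0.22), Dusp6 (0.19), Dusp7 (0.18), Il17rd (0.17) and Errfi1 (0.10). After H/R this held for Spred2 (0.21), Dusp7 (0.21), Errfi1 (0.18) and Dusp4 (0.17), beside 11.7% of all genes at any fold. The list's median was 0.17 in each comparison with Sham, beside -0.030 (H/R) and 0.017 (EGR1OV) for all genes. Over all genes, 1.60% were called higher after H/R and 9.87% in EGR1OV.

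Of 13 listed MAP kinase target genes, 11 were tested. After H/R 3 were called, all higher: Egr2 (0.67, adjusted p 0.0049), Phlda1 (0.55, adjusted p 0.0129) and Fosl1 (0.38, adjusted p 0.0032). In EGR1OV 4 were called, all higher, with Fos (1.06, adjusted p 1.57e-06), Ier3 (0.63, adjusted p 2.34e-05) and Spsb1 (0.59, adjusted p 1.13e-07) leading. Fosl1 was the fourth (0.52, adjusted p 4.00e-05). Beside these counts, 1.60% of all genes were called higher after H/R and 9.87% in EGR1OV. Etv4 and Etv5, transcription factors often used as readouts of FGF signalling, were not called in either comparison with Sham. Their log2 differences in EGR1OV were 0.14 (adjusted p 0.0153) and -0.34 (adjusted p 3.10e-04), both below the fold threshold. The Etv5 values of EGR1OV lay below those of Sham in every library. After quantile normalization Etv5 was called lower (-0.43). The lists for MAP kinase feedback and targets also answer to other receptors, such as those for EGF, and these data do not separate the sources.

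EGR1OV was also set against H/R for these lists, where 11.9% of all genes were called higher and 6.94% lower. Fgf18 (-0.61, adjusted p 0.00182) and Fgf13 (-0.57, adjusted p 3.45e-04) were lower, as was Flrt3 (-1.42, adjusted p 6.97e-08). Of the heparan sulfate genes, 1 was called higher and 5 lower, led by Sdc3 (1.04), Gpc4 (-0.78) and Hs6st2 (-0.76). Map2k1 was the 1 gene of the cascade called (0.61, adjusted p 6.36e-07), and 0 of the 10 other feedback inhibitors were called, although 5 of them had an adjusted p under 0.05, as did 51.0% of all genes. These were Dusp4 (0.29), Il17rd (0.26), Spred1 (-0.23), Dusp5 (-0.20) and Dusp6 (-0.13). Of the target genes 3 were higher and 4 lower, led by Fos (1.10, adjusted p 1.08e-06), Egr2 (-0.86, adjusted p 1.07e-04) and Ier3 (0.82, adjusted p 3.45e-06). Etv5 was among those lower (-0.40, adjusted p 9.60e-05).

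**Figure D4:**
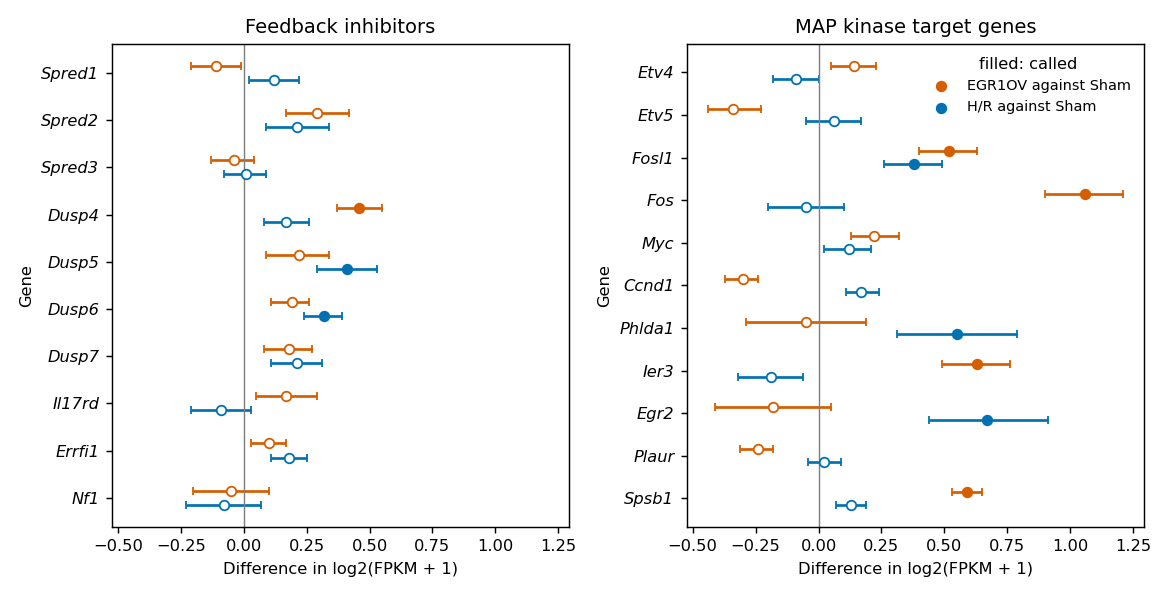
Differences from Sham in log2(FPKM + 1) for tested feedback inhibitors and MAP kinase target genes, with 95% intervals from limma, filled where called. Dusp5, Dusp6, Egr2, Phlda1 and Fosl1 are called after H/R, and Dusp4, Fos, Ier3, Spsb1 and Fosl1 in EGR1OV.

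For each called gene the transcripts with the most similar profile were found by Pearson correlation of log2(FPKM + 1) over the 9 libraries. The points share 3 groups, so the correlation mostly reflects differences between them. The nearest were Il1f6 (r = 0.997) and Tbrg1 (0.994) for Fgf7, and Prr13 (0.998) and Endod1 (0.997) for Fgfr1. Fgfr2 was closest to Klf3 (0.982) and Ecscr (0.978), and Fgf2 to G3bp1 (0.985) and Ahr (0.977). Spry4 was closest to Itgav (0.968) and to Ext1 (0.964), the heparan sulfate enzyme called after H/R.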

How the data were processed

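The authors deposited 1 table of FPKM in which each library has its own column. The labels name HISAT2 2.1.0, Bowtie2 2.2.3, TopHat2 and the build mm9, without roles; the counter is not given in the sources used here. However, 94.6% of gene positions equal GENCODE M21 on GRCm38, so positions are given as in the table. FPKM are not counts. With M21 exon lengths, 94.0% of 162950 values from 0.5 to 1000 reads were whole within 0.02 reads, which gave the depths. Reads of Fgf1 and Spry4 were not whole, since their annotation differed, and are not given, which also limits their voom values. Genes were filtered by mean FPKM, and no floor in reads was applied.

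All 9 libraries entered 1 limma fit (version 3.58.1 in R 4.3.3; trended eBayes, two-sided) on log2(FPKM + 1). Fold thresholds against Sham follow the study; that between the treated groups was set for this comparison. Ratios were compared by exact permutation. No replicate pair agreed within sampling noise (chi-square per degree of freedom 1.97 to 3.59), and none was merged. The code was tested on simulated libraries. Members and gene lists were chosen with earlier results of these data known. All 10 members are named, and from each pathway list up to 3 called genes with the largest change per comparison; Rasa1, Rps6ka1, Nudt6, Ctbp2, Gm42922, Fgfr4, Fgfrl1, Kl, Klb, Frs2, Sulf1, Etv4, Etv5, the fourth called target Fosl1 and uncalled inhibitors were named after their values were seen. Python 3.11.15 with pandas 2.3.3 and matplotlib 3.10.9 was also used. Alternatives were a pseudocount of 0.1, no filter, a minimum mean of 5 FPKM, quantile normalization, median-ratio scaling, a block for replicate number, no trend, only the groups compared, voom on recovered reads, other fold thresholds and each library left out.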

Additional observations from a re-analysis of the deposited data

Results flagged for a closer look

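The response to EGR1OV and to H/R differed for 6 of the 8 tested genes by the direct limma comparison of the treated groups (adjusted p under 0.05), a cutoff that 51.0% of all 13985 genes passed. The log2 difference, EGR1OV minus H/R, was 1.29 for Fgf7, 0.64 for Fgfr1, -0.53 for Fgf2, -0.38 for Fgfr2, -0.23 for Spry4 and -0.19 for Spry1. The last 3 of these are below 1.3-fold on the log2(FPKM + 1) scale. No explanation was tested.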

How the results depend on the processing

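All 8 called differences of single members stayed called under each alternative in which the gene was tested, other than the 2-fold threshold. Fgf7 in EGR1OV ran from 1.32 to 1.60 and Fgf2 after H/R from 0.47 to 0.72 on the log2 scale. Of 16 differences not called, 2 were called under some alternatives that kept the fold thresholds (Fgf1 after H/R and Fgfr2 in EGR1OV against H/R) and 4 changed sign. These were Spry4 in EGR1OV (-0.0032 after quantile normalization), Fgf2 in EGR1OV (-0.07 to 0.03 with a library left out; 0.03 without Sham replicate 1 and 0.01 without EGR1OV replicate 2), Fgfr1 after H/R (0.03 after median-ratio scaling, 0.0032 after quantile normalization, 0.0027 without Sham replicate 1, 0.01 without H/R replicate 1) and Spry2 in EGR1OV against H/R (-0.05 after median-ratio scaling, -0.11 after quantile normalization, -0.08 to 0.05 with a library left out, below 0 without H/R replicate 2 or EGR1OV replicate 2).

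With a mean of at least 5 FPKM no member was called after H/R, since Fgf2 and Spry4 were then not tested, and 1315, 372 and 1520 genes were called in EGR1OV against Sham, H/R against Sham and EGR1OV against H/R, in place of 2291, 594 and 2641. With no fold threshold these counts were 6417, 1635 and 7135, and 4, 3 and 6 members were called. At 2-fold they were 484, 11 and 489, with 1, 0 and 1 members called. With voom on recovered reads 995 genes were called after H/R; the cause was not tested. With a library left out, 3 members were called in EGR1OV, 2 after H/R and 3 to 4 in EGR1OV against H/R, and all genes called numbered 2238 to 2373, 449 to 579 and 2583 to 2703. The share called higher was 60.3%, 37.7% and 63.2% as deposited, 54.9%, 58.2% and 51.0% after median-ratio scaling, and 45.9%, 56.5% and 42.5% after quantile normalization.

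The groups share replicate numbers, but same-numbered libraries did not deviate together (correlations from -0.02 to 0.06). With the replicate block 3, 2 and 3 members and 2309, 516 and 2654 genes were called. Fgf21 and Fgfr3, at 3 to 12 reads, are limited by depth.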
